A study of Homo sapiens with 18 samples.

Results

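Caldesmon, the myosin light chain kinase, the myosin light chains and the tropomyosins set how actin and non-muscle myosin II pull against each other. This group was taken as 10 gene symbols of the deposited count table, CALD1, MYLK, MYL6, MYL9, MYL12A, MYL12B, TPM1, TPM2, TPM3 and TPM4. All 10 were found among 41120 symbols, and all 10 were among the 12291 genes abundant enough to be tested. CALD1 and MYLK were chosen by their measured fold changes, which had opposite signs in post-hypoxic against non-hypoxic SCC154 cells. Every value of that contrast is therefore a description without a test. The others were taken by name as their family, with earlier results of these data known.

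The study followed head and neck squamous carcinoma cells after an episode of low oxygen. FADU-hfm cells derive from the HPV-negative FaDu line and SCC154-hfm cells from the HPV-positive SCC154 line, and both carry a hypoxia-fate mapping reporter, in which a recombinase made under low oxygen switches a cell and its descendants from DsRed to GFP. Spheroids grown in medium with serum were dissociated, and DsRed-positive (non-hypoxic) and GFP-positive (post-hypoxic) cells were sorted by flow cytometry. The sorted cells were passaged as normoxic cultures before RNA extraction, so all 4 groups were measured away from low oxygen. There were 4 libraries of non-hypoxic FaDu cells, 5 of post-hypoxic FaDu cells, 5 of non-hypoxic SCC154 cells and 4 of post-hypoxic SCC154 cells (replicates 2 to 5). HPV status and line cannot be told apart here, and each is represented by a single cell line. The labels do not say whether replicates were separate cultures or sorts, so p-values measure the spread between these libraries, which may be technical.

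In non-muscle cells, myosin II is a complex of heavy chains, the essential light chain MYL6 and a regulatory light chain (MYL9, MYL12A or MYL12B). Phosphorylation of the regulatory light chain by kinases such as MYLK turns the motor on, and myosin phosphatase turns it off. Tropomyosins run along actin filaments and decide which myosins and severing proteins can bind, while caldesmon binds actin, tropomyosin and myosin and holds the motor's ATPase activity down. Many of these genes carry CArG boxes, the binding sites of serum response factor, which is switched on by its actin-sensing cofactors of the MRTF family.

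Levels are given as CPM, counts scaled to library size with trimmed-mean (TMM) factors. The 3′ tag kit reads the end of each polyadenylated transcript, so CPM is not divided by transcript length, and levels of different genes are compared as tags only. Library totals ran from 1654719 to 2503573 counts. All 9 squamous epithelial markers were tested, and their summed level was 1663 to 2311 CPM in every library. Of 6 smooth muscle markers 2 (CNN1 and DES) had no count in any library and 1, SMTN, was abundant enough to be tested; the summed level of the list was 5.23 to 13.4 CPM, with 5.45 to 11.3 CPM in post-hypoxic SCC154. Fibroblast markers summed to at most 5.80 CPM (3 of 7 without a count), endothelial markers to at most 5.18 CPM (1 of 4) and immune markers to at most 2.98 CPM (2 of 5), and none of these was abundant enough to be tested.

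CALD1 lies on the plus strand of chromosome 7 (hg38, chr7:134744252-134970728, GENCODE v29) and MYLK on the minus strand of chromosome 3 (chr3:123610049-123884331). RefSeq (GRCh38.p14) lists 20 promoter windows for 9 of the 10 genes, each holding 250 bases before and 50 bases after a transcript start; MYL9 was not matched. The motifs were searched on both strands: the CArG box, the TEAD factor core CATTCC, and the core of hypoxia response elements, ACGTG. A CArG box was found in 2 of these 20 windows, 1 of MYLK and 1 of TPM4, and in 1.29% of all 35116 promoters of the table. CATTCC was found in 4 of the 20 windows against 14.0% of all promoters, and ACGTG in 4 against 21.4%. The windows printed here are the 2 with a CArG box and the 2 CALD1 windows with CATTCC, because CALD1 and MYLK are the genes whose levels moved apart. Capitals mark the CArG box and CATTCC, and none of the marked motifs overlap. In the downstream CALD1 window the marked letters read GGAATG, since the motif lies on the other strand there.
MYLK chr3:123620499-123620798 (minus strand): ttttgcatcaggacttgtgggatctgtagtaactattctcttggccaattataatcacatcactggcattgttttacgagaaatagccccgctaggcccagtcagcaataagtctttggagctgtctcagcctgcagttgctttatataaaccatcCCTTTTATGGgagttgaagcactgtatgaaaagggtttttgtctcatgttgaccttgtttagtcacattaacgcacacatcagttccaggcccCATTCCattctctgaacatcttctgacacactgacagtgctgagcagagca
TPM4 chr19:16067288-16067587 (plus strand): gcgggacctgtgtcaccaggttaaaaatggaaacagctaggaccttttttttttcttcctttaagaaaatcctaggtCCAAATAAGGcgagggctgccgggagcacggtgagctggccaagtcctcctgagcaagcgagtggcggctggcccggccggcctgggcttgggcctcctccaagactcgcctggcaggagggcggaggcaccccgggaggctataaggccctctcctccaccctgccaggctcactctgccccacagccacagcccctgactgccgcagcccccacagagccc
CALD1 chr7:134745217-134745516 (plus strand): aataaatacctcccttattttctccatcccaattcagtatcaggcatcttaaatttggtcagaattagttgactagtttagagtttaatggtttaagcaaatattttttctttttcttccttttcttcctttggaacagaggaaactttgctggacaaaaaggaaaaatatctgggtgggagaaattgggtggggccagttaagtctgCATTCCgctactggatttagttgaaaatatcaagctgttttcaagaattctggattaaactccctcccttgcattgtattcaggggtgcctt
CALD1 chr7:134779384-134779683 (plus strand): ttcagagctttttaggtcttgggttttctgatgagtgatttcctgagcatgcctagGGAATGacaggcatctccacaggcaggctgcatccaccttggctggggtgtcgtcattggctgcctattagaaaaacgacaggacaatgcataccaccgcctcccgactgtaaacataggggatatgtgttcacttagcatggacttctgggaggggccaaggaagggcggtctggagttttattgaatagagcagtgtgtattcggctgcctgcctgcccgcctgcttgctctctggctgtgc
The MYLK window is not that of the long kinase. Its start lies 10.5 kb from the 3′ end of a gene 274 kb long, inside MYLK, where 2 annotated transcripts begin; this internal start is known for telokin, the short C-terminal product that binds myosin and lacks the kinase. In it the CArG box begins 94 bases before the start. Kinase and telokin transcripts share their 3′ end, so the tags of MYLK count both and do not tell them apart. CALD1 has 4 listed starts. The upstream one of those printed has 1 annotated transcript starting nearby and the downstream one 9, and neither window holds a CArG box or ACGTG. The CALD1 windows not printed, chr7:134711249-134711548 and chr7:134891208-134891507, hold 1 ACGTG each and no CArG box. They have 0 and 4 annotated transcripts starting nearby. A motif match describes the letters of a window and was not tied to any level.

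CALD1 had the largest ratio between its highest and lowest group means among the 10 genes. It was abundant in FaDu, scarcer in non-hypoxic SCC154, and lowest in post-hypoxic SCC154. In non-hypoxic FaDu replicates 1 to 4 its level was 206, 204, 176 and 189.8 CPM, and in post-hypoxic FaDu replicates 1 to 5 it was 185, 208, 209, 203 and 202 CPM. In non-hypoxic SCC154 replicates 1 to 5 it was 58.2, 44.5, 44.3, 49.4 and 46.4 CPM. In post-hypoxic SCC154 replicates 2 to 5 it was 12.3, 9.55, 11.1 and 15.9 CPM, from 30, 16, 27 and 35 counts. The FaDu groups overlapped each other, whereas both SCC154 groups lay below every FaDu library and did not overlap each other. Group means were 194 ± 14.0 CPM (SD, n = 4), 202 ± 9.55 (n = 5), 48.6 ± 5.79 (n = 5) and 12.2 ± 2.70 (n = 4) in the same order. In bulk RNA, fewer cells with CALD1 transcripts and fewer transcripts in each cell cannot be told apart.

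MYLK ran the other way. Its level was 68.5, 83.2, 43.4 and 55.5 CPM in non-hypoxic FaDu and 64.3, 63.0, 45.0, 57.4 and 68.6 CPM in post-hypoxic FaDu. It was 135, 154, 146, 155 and 148 CPM in non-hypoxic SCC154 and 267, 217, 269.8 and 247 CPM in post-hypoxic SCC154 replicates 2 to 5. The lowest post-hypoxic SCC154 library, replicate 3, was still above every non-hypoxic one, and the ranges of the 2 FaDu groups overlapped. Means were 62.7 ± 17.1 CPM (SD, n = 4) and 59.7 ± 9.15 (n = 5) in FaDu, and 147 ± 8.01 (n = 5) and 250.3 ± 24.4 (n = 4) in SCC154. The antisense gene MYLK-AS1 covers the 3′ end of MYLK. It had 15.7 ± 1.55 CPM in non-hypoxic and 17.2 ± 0.913 CPM in post-hypoxic SCC154, and it was 5.88 ± 2.16 and 6.41 ± 2.71 CPM in FaDu. The strand setting of the counting is not given in the sources used here, so reads of MYLK and MYLK-AS1 cannot be told apart with certainty.

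The ratio of CALD1 to MYLK tags differed by line and, in SCC154, by sorted population, the latter being the contrast that picked the pair; MYLK tags include telokin. CALD1 had a median of 3.21 times as many tags as MYLK in non-hypoxic FaDu and 3.29 times as many in post-hypoxic FaDu. In non-hypoxic SCC154 the order was turned, with MYLK at a median of 3.19 times CALD1 (range 2.31 to 3.46 over libraries). In post-hypoxic SCC154 MYLK had a median of 22.3 times the tags of CALD1 (range 15.5 to 24.4).

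**Figure D1:**
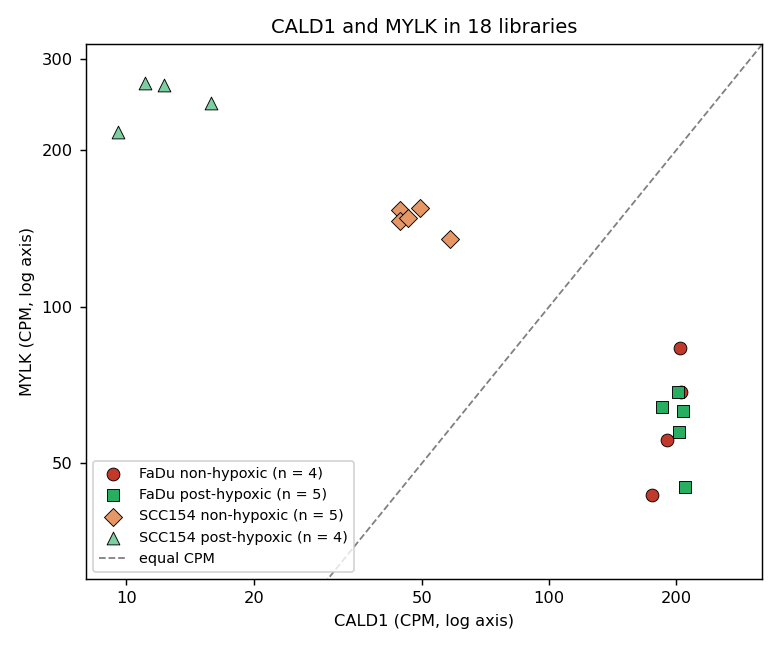
CALD1 (x axis) against MYLK (y axis) in each of the 18 libraries, in CPM on log axes; symbols are the 4 groups and the dashed line marks equal CPM. FaDu libraries lie below the line with the 2 populations mixed, non-hypoxic SCC154 lies above it at 44.3 to 58.2 CPM of CALD1, and post-hypoxic SCC154 stands apart at 9.55 to 15.9 CPM.

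Post-hypoxic against non-hypoxic SCC154 is the contrast from which CALD1 and MYLK were picked. CALD1 was 3.94-fold lower (log2 fold change -1.98, SE 0.14) and MYLK 1.70-fold higher (0.76, SE 0.13) in the post-hypoxic cells. These were the 2 of 10 genes past the threshold (Benjamini-Hochberg adjusted p under 0.05 by edgeR's quasi-likelihood test) and the 2 whose library values did not overlap. Of all genes tested 0.757% were past the threshold, 0.334% higher and 0.423% lower, and 5.55% did not overlap. Since this contrast chose the pair, nothing is read from that count. Of the other 8 genes, those nearest the pair in size were TPM3, at -0.44 (SE 0.13), and TPM4, at -0.40 (SE 0.16), which did not pass. TPM1 was at -0.29 (SE 0.18), MYL9 at -0.21 (SE 0.25), MYL12A at -0.20 (SE 0.12), MYL12B at -0.12 (SE 0.09) and TPM2 at -0.10 (SE 0.11), and MYL6 alone of the 8 was positive, at 0.26 (SE 0.27). The median over the 10 genes was -0.21, beside 0 over all genes tested.

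In FaDu, whose comparison the choice of genes did not use, none of the 10 genes passed the test between post-hypoxic and non-hypoxic cells. The count was 0 of 10 beside 0% of all genes by edgeR. None of the 10 had an unadjusted p under 0.05, which 298 genes in all had, and no gene's libraries separated the populations (1.07% of all genes). DESeq2 called 3 genes and limma voom none, and neither called any of the 10. CALD1 differed by 0.06 on the log2 scale, with a 95% interval from -0.16 to 0.27, and MYLK by -0.08 (-0.39 to 0.23). The narrowest interval was that of MYL12B, 0.05 (-0.13 to 0.23), and the widest was that of MYL9, 0.21 (-0.36 to 0.77). The intervals come from the fit that does not pair replicate numbers, and they do not show that the genes stayed level. Over 28 alternative settings, the block on replicate number among them, CALD1 ran from -0.06 to 0.19 and MYLK from -0.26 to 0.09. Same-numbered FaDu libraries deviated together, and over the 4 pairs MYL12A was higher in the post-hypoxic library of each (0.27, 0.34, 0.16 and 0.07 on the log2 scale), as was MYL9 (0.10, 0.20, 0.58 and 0.32). Neither passed in the fit with the replicate number as a block. FaDu replicates 1 and 2 had less MYL6 than replicates 3 and 4 in both populations. The comparison was also made within each of these sets, which leave out post-hypoxic replicate 5. Within replicates 1 and 2 CALD1 differed by -0.06 and MYLK by -0.26, and within replicates 3 and 4 by 0.19 and 0.07, again with no gene of the group past the threshold.

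The change from non-hypoxic to post-hypoxic cells differed between the lines by -2.03 for CALD1 (SE 0.18, SCC154 minus FaDu) and by 0.84 for MYLK (SE 0.20). CALD1 was the 1 gene of the 10 past the threshold for this difference, as were 0.0163% of all genes. These values hold the SCC154 contrast that picked the pair and are a description. The other 8 genes ran from -0.42 (MYL9, SE 0.37) to 0.23 (MYL6, SE 0.38). SCC154 and FaDu thus had values of -1.98 and 0.06 for CALD1 and of 0.76 and -0.08 for MYLK.

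**Figure D2:**
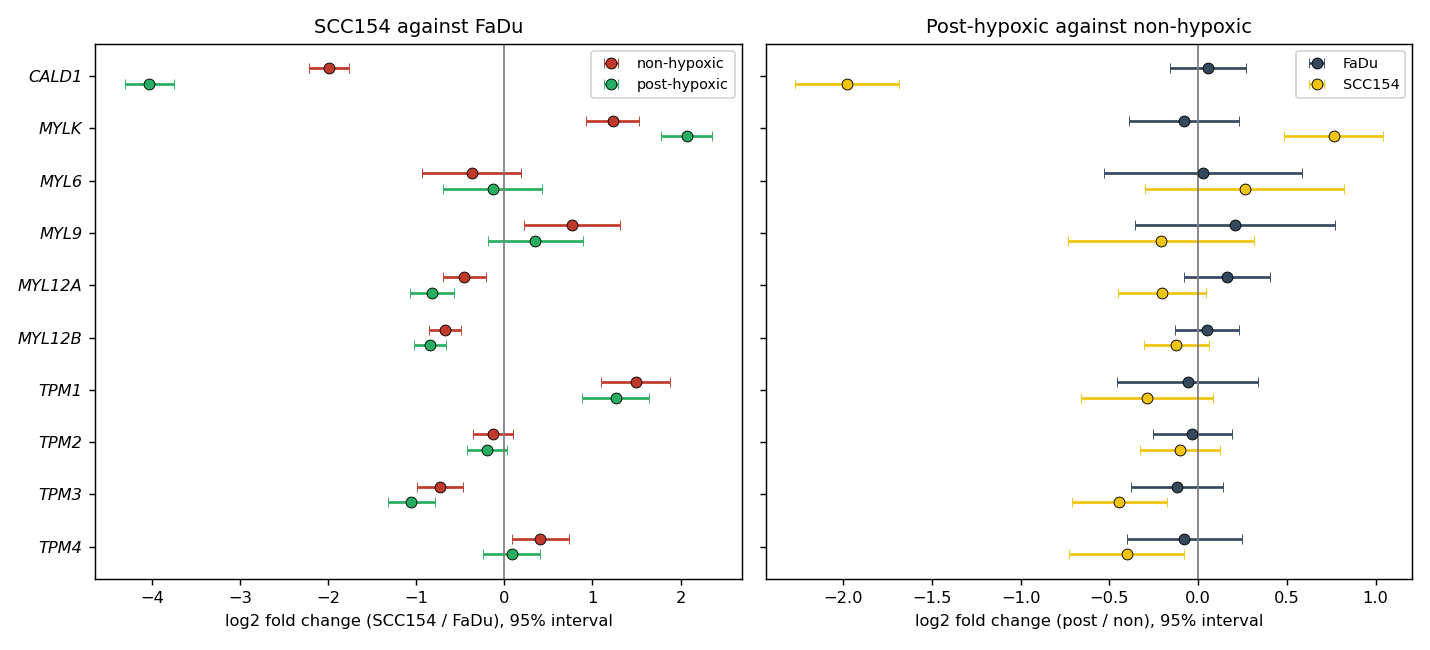
Log2 fold changes of the 10 genes with 95% intervals from the edgeR fit; left, SCC154 against FaDu in the non-hypoxic and post-hypoxic populations; right, post-hypoxic against non-hypoxic in FaDu and SCC154. On the right all 10 FaDu intervals cover 0, and CALD1 at -1.98 and MYLK at 0.76 in SCC154 are the values by which the pair was chosen. The fit does not pair replicate numbers.

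Between the lines, most genes of the group differed, as did most of the transcriptome. In non-hypoxic cells 8 of 10 passed the threshold, 4 higher and 4 lower in SCC154, beside 68.9% of all genes (34.5% higher and 34.5% lower), and the libraries of 5 of 10 did not overlap, beside 56.5%. In post-hypoxic cells 6 of 10 passed, 2 higher and 4 lower, beside 69.7% of all genes (34.8% higher and 34.9% lower), and 6 did not overlap, beside 57.3%. These shares are near those of the transcriptome. CALD1 was 3.99-fold lower in non-hypoxic SCC154 (log2 fold change -1.99, SE 0.11) and 16.3-fold lower in post-hypoxic SCC154 (-4.03, SE 0.14). MYLK was 2.34-fold higher in non-hypoxic SCC154 (1.23, SE 0.15) and 4.20-fold higher in post-hypoxic SCC154 (2.07, SE 0.14). The line comparisons use the same SCC154 libraries as the contrast that picked the pair, so these values of CALD1 and MYLK are a description.

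Among the light chains, the regulatory chains made by MYL12A and MYL12B were lower in SCC154 and the third, MYL9, was the scarce one in both lines. MYL12B had 480.1, 413, 499 and 542 CPM in non-hypoxic FaDu, 492, 464, 498, 559.6 and 491 CPM in post-hypoxic FaDu, 293, 299, 305, 312 and 309 CPM in non-hypoxic SCC154 and 294, 248, 284 and 288 CPM in post-hypoxic SCC154. Every SCC154 library was below every FaDu library. MYL12B was 1.59-fold lower in non-hypoxic SCC154 (log2 -0.67, SE 0.09, adjusted p = 4.01e-07, edgeR) and 1.80-fold lower in post-hypoxic SCC154 (-0.85, SE 0.09, adjusted p = 1.38e-08). MYL12A, its neighbour on chromosome 18 (chr18:3247481-3256236, plus strand; MYL12B at chr18:3261479-3278431, plus strand), had 159, 135, 194 and 202 CPM in non-hypoxic FaDu and 108, 119, 129, 135 and 135 CPM in non-hypoxic SCC154. These ranges overlapped at the lowest FaDu library, and the difference was 1.37-fold (log2 -0.46, SE 0.12, adjusted p = 0.00158, edgeR). In post-hypoxic cells MYL12A was 192, 171, 217, 212 and 170.3 CPM in FaDu against 111, 115, 102 and 108 CPM in SCC154, with no overlap and a 1.77-fold difference (log2 -0.82, SE 0.12, adjusted p = 2.00e-06, edgeR). The coding sequences of MYL12A and MYL12B are 95.7% identical, with a longest shared run of 77 bases. After the stop codon the longest shared run is 17 bases. The transcripts compared hold 318 and 347 bases after the stop codon, and whether tags reached into the coding sequence was not tested. How the authors' counting treated reads that fit both genes is not given in the sources used here.

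MYL9, the regulatory chain best known from smooth muscle (chr20:36541484-36551447, plus strand), had 50.4, 22.6, 15.5 and 25.9 CPM in non-hypoxic FaDu and 70.1, 38.7, 46.0, 41.2 and 48.5 CPM in non-hypoxic SCC154. The ranges overlapped through FaDu replicate 1. MYL9 was 1.70-fold higher in non-hypoxic SCC154 (log2 0.77, SE 0.27, adjusted p = 0.0135, edgeR); without non-hypoxic FaDu replicate 2 the adjusted p was 0.0505 (log2 0.66) and without replicate 3 it was 0.0670 (log2 0.56), in a range of 5.86e-05 to 0.0670 over 25 alternative settings. Post-hypoxic FaDu had 54.0, 26.2, 23.6, 32.6 and 30.4 CPM and post-hypoxic SCC154 34.4, 50.1, 41.4 and 44.0 CPM. That difference did not pass (log2 0.35, 95% interval -0.19 to 0.89), but without post-hypoxic FaDu replicate 1, the highest of its group, it did (log2 0.58, adjusted p = 0.0458, edgeR; range over the alternatives 0.00185 to 0.421). As a share of the tags of the 3 regulatory chains, MYL12B made up 70.7% ± 1.20 (SD, n = 4) and 69.0% ± 1.85 (n = 5) in non-hypoxic and post-hypoxic FaDu, and 63.5% ± 1.24 (n = 5) and 64.7% ± 3.23 (n = 4) in SCC154. MYL9 made up 4.21% ± 2.2 and 4.59% ± 1.59 in FaDu and 10.2% ± 2.68 and 9.92% ± 1.76 in SCC154. MYL12A stayed near one share, 25.1% to 26.5%, in the 4 groups.

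MYL6, the essential light chain (chr12:56158161-56163496, plus strand), scattered widely within groups. Non-hypoxic FaDu had 104, 145, 221 and 312 CPM and post-hypoxic FaDu 139.5, 169, 227, 288 and 166 CPM in replicates 1 to 5, so replicate 1 was lowest and replicate 4 highest in both populations. Non-hypoxic SCC154 had 182, 119, 102, 204 and 145 CPM and post-hypoxic SCC154 228, 121, 237 and 134 CPM in replicates 2 to 5. All 4 ranges overlapped, and neither line comparison passed, at -0.37 (95% interval -0.93 to 0.19) and -0.13 (-0.70 to 0.43) on the log2 scale. The last 514 exon bases of MYL6 are shared with SMARCC2 on the opposite strand (chr12:56162983-56189567). SMARCC2 ran from 207.6 to 331.7 CPM over the libraries. In non-hypoxic FaDu replicates 1 to 4 it had 226.7, 240.8, 241.6 and 260.4 CPM, the same order as MYL6 over a narrower range; in post-hypoxic FaDu replicate 4, the highest for MYL6, it had 207.6 CPM, its lowest. Whether reads of one were counted for the other was not tested. MYL6B lies on the same strand and overlaps exons of MYL6, but it does not cover the 3′ end of MYL6. Its group means were 55.3, 60.2, 44.6 and 60.1 CPM from non-hypoxic FaDu to post-hypoxic SCC154, and reads shared with MYL6 were not tested either.

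**Figure D3:**
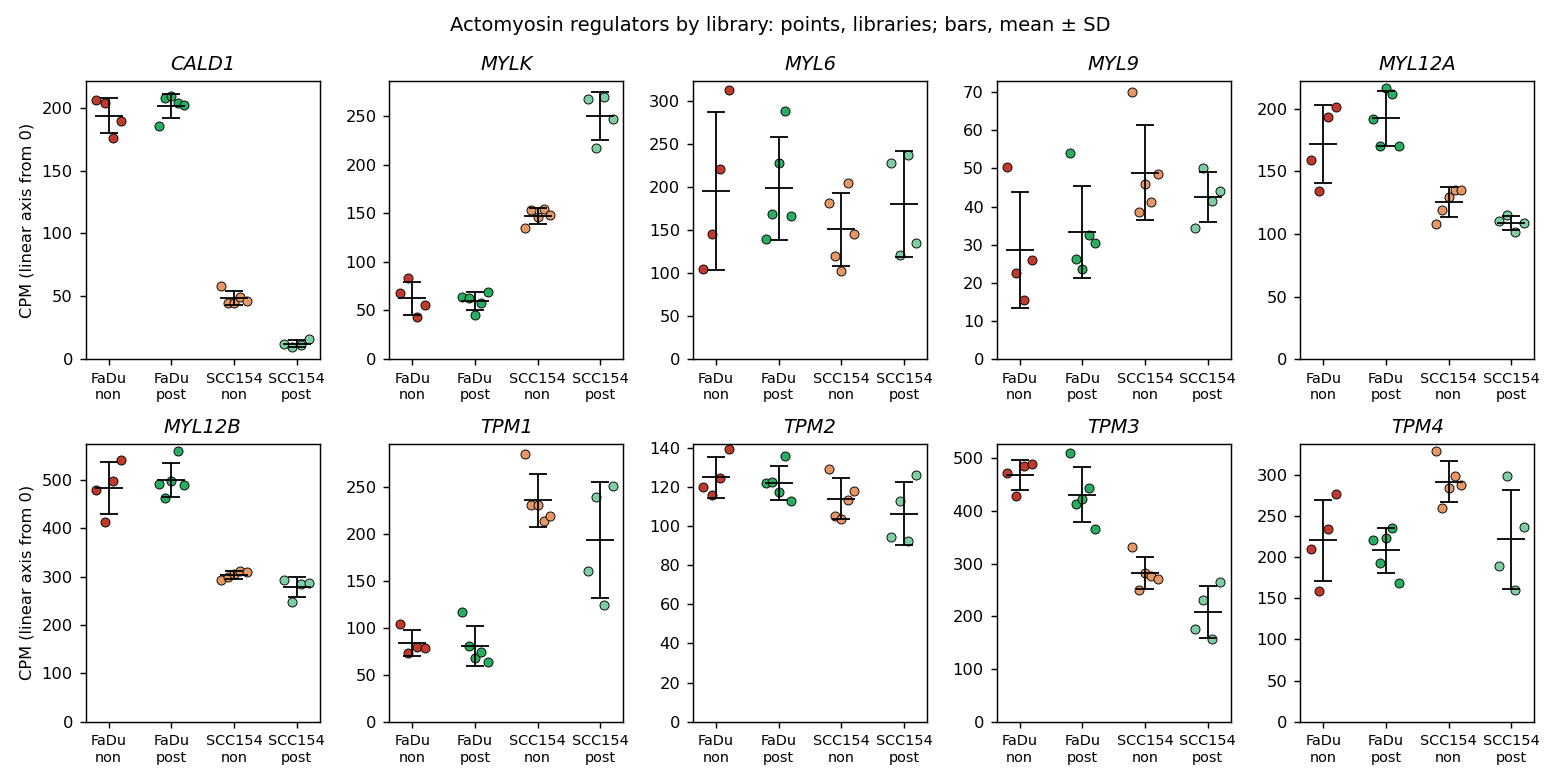
Level in CPM (y axis, linear from 0) of each of the 10 genes in the 4 groups (x axis); points are libraries and bars the mean ± SD. CALD1 steps down from FaDu to SCC154 and again to post-hypoxic SCC154, MYLK steps up, and MYL6 spreads from 102 to 312 CPM across overlapping groups.

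The tropomyosins gave the clearest difference in makeup. TPM3 was the main tropomyosin of FaDu, whereas TPM1, TPM3 and TPM4 were carried at nearer levels in SCC154. TPM1 (chr15:63042632-63071915, plus strand) had 104, 73.2, 79.4 and 78.7 CPM in non-hypoxic FaDu and 284, 231, 231, 213 and 219 CPM in non-hypoxic SCC154. It had 117, 80.1, 68.1, 74.3 and 63.8 CPM in post-hypoxic FaDu and 160.1, 239, 124 and 251 CPM in post-hypoxic SCC154. No SCC154 library reached down to a FaDu one. TPM1 was 2.81-fold higher in non-hypoxic SCC154 (log2 1.49, SE 0.19, adjusted p = 2.88e-07, edgeR) and 2.40-fold higher in post-hypoxic SCC154 (1.26, SE 0.18, adjusted p = 2.02e-06).

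TPM3 (chr1:154155304-154194648, minus strand) moved the other way between the lines. It had 472, 428, 485 and 489.6 CPM in non-hypoxic and 510.1, 414, 422, 443 and 366 CPM in post-hypoxic FaDu. It had 332, 250.3, 282, 276 and 270.3 CPM in non-hypoxic and 177, 232, 157 and 265 CPM in post-hypoxic SCC154. The lines did not overlap in either population. TPM3 was 1.66-fold lower in non-hypoxic SCC154 (log2 -0.73, SE 0.13, adjusted p = 1.87e-05, edgeR) and 2.08-fold lower in post-hypoxic SCC154 (-1.06, SE 0.13, adjusted p = 1.56e-07). TPM3 has 8 annotated pseudogenes in the table, whose counts came to 2.15% of its own.

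TPM4 (chr19:16067021-16103005, plus strand), a tropomyosin of stress fibres and the cortex, had 210.1, 159, 234 and 277 CPM in non-hypoxic FaDu and 329, 260.0, 283, 298 and 287 CPM in non-hypoxic SCC154. The ranges overlapped through the highest FaDu and the lowest SCC154 library. The 1.33-fold difference passed (log2 0.41, SE 0.16, adjusted p = 0.0246, edgeR) but was lost without non-hypoxic FaDu replicate 1 (adjusted p = 0.0520), FaDu replicate 2 (0.123) or non-hypoxic SCC154 replicate 1 (0.0550), in a range of 0.00482 to 0.123 over the alternatives. In post-hypoxic cells TPM4 was 221, 193, 223, 236 and 168 CPM in FaDu and 189.6, 299, 160.3 and 237 CPM in SCC154, and the log2 difference was 0.08 (95% interval -0.24 to 0.41). TPM2 (chr9:35681992-35690121, minus strand), best known from muscle, differed least between groups, with means of 125 ± 10.4, 122 ± 8.62, 114 ± 10.5 and 106 ± 16.0 CPM from non-hypoxic FaDu to post-hypoxic SCC154. Neither line difference of TPM2 passed, at -0.13 (-0.36 to 0.09) in non-hypoxic and -0.20 (-0.43 to 0.03) in post-hypoxic cells; without post-hypoxic SCC154 replicate 5 the second was -0.29 (adjusted p = 0.0316, edgeR; range over the alternatives 0.0316 to 0.344).

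As shares of all tropomyosin tags, TPM3 made up 52.4% ± 2.21 (SD, n = 4) in non-hypoxic FaDu and 51.2% ± 0.992 (n = 5) in post-hypoxic FaDu. In SCC154 it made up 30.5% ± 0.667 (n = 5) and 28.6% ± 1.70 (n = 4). TPM1 went from 9.37% ± 1.51 and 9.50% ± 1.59 in FaDu to 25.5% ± 1.45 and 26.2% ± 2.26 in SCC154, and TPM4 from 24.3% ± 3.22 and 24.7% ± 1.84 to 31.6% ± 1.03 and 30.4% ± 2.84. TPM2 held 12.4% to 14.9% in each group mean. The shares of the 2 populations of a line differed by less than those of the 2 lines for TPM1, TPM3 and TPM4. The sum of the 4 genes was 897 ± 87.8 CPM in non-hypoxic FaDu, 842 ± 96.3 in post-hypoxic FaDu, 923 ± 88.0 in non-hypoxic SCC154 and 729 ± 179 in post-hypoxic SCC154.

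**Figure D4:**
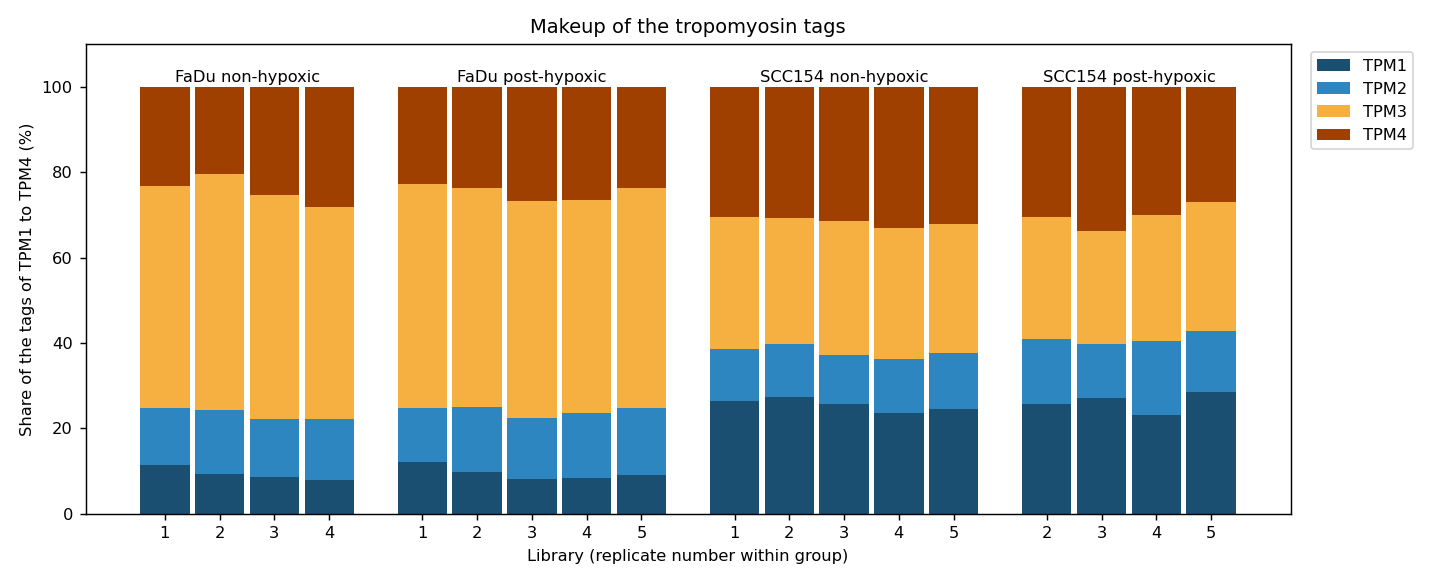
Share of the tropomyosin tags (y axis, %) taken by TPM1 to TPM4 in each library (x axis, replicate number within the 4 groups). TPM3 takes about the same share in all FaDu libraries (49.7% to 55.1%) and a smaller one in all SCC154 libraries (26.3% to 31.3%).

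The wide spread of the sum in post-hypoxic SCC154 was shared by all 4 genes. Replicates 2 and 4 had 621 and 533 CPM of tropomyosin tags and replicates 3 and 5 had 882 and 879 CPM, and each of TPM1, TPM2, TPM3 and TPM4 was lower in replicates 2 and 4 than in replicates 3 and 5. MYL6 and MYLK were higher in replicates 2 and 4, at 228 and 237 CPM against 121 and 134 CPM for MYL6 and at 267 and 269.8 CPM against 217 and 247 CPM for MYLK. CALD1 did not sort the libraries this way. The totals of these libraries were 2357147, 1654719, 2397549 and 2141550 counts for replicates 2 to 5, so replicates 2 and 4 were also the deeper ones; the part of depth was not tested. In non-hypoxic SCC154, TPM3 had 250.3 and 276 CPM in replicates 2 and 4 and 282 and 270.3 CPM in replicates 3 and 5, which does not split them that way, whereas MYLK, at 154 and 155 CPM against 146 and 148 CPM, was slightly higher in replicates 2 and 4 there too. In FaDu the same number went with a like level in both populations for MYL6, and for MYL9, which was highest in replicate 1 of both (50.4 and 54.0 CPM). What the replicate numbers stand for is not given in the sources used here.

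**Figure D5:**
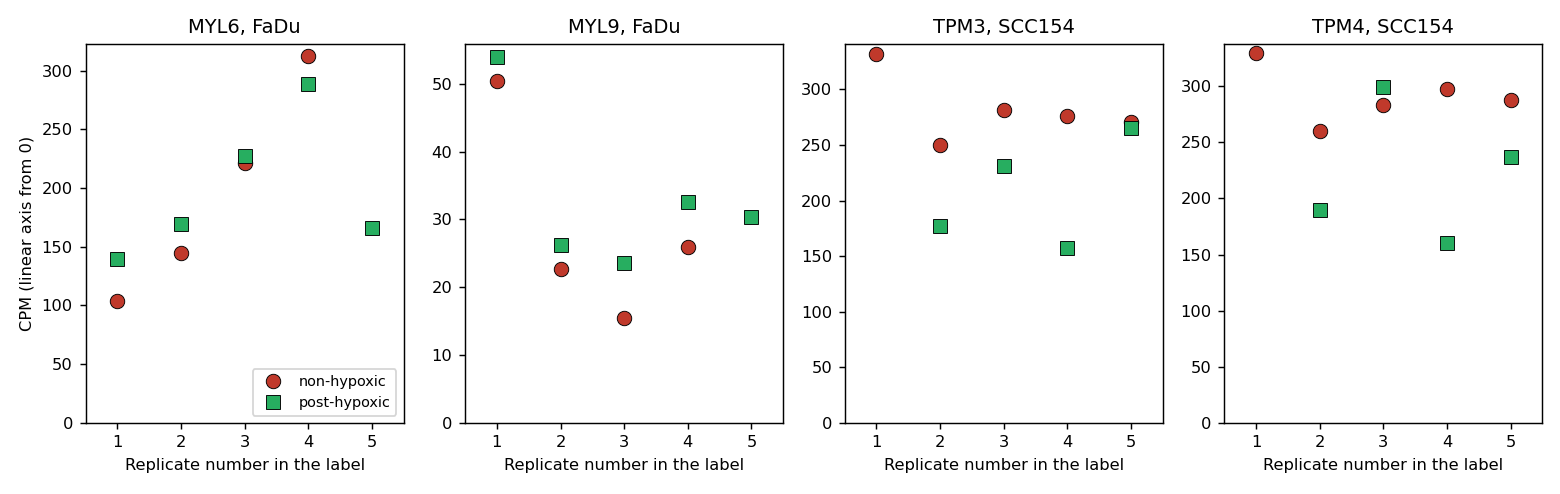
Level in CPM (y axis, linear from 0) by replicate number in the label (x axis) for MYL6 and MYL9 in FaDu and for TPM3 and TPM4 in SCC154; circles are non-hypoxic and squares post-hypoxic libraries. Same-numbered FaDu libraries sit close together, as for MYL6 at 104 and 139.5 CPM in replicate 1 and 312 and 288 CPM in replicate 4, and post-hypoxic SCC154 replicates 2 and 4 are low for both tropomyosins.

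The order of mean tag levels differed between the lines and, in SCC154, between the populations in the place of MYLK. MYL12B and TPM3 led in both FaDu populations, with overlapping ranges, and no other gene reached them. In non-hypoxic SCC154, MYL12B, TPM4, TPM3 and TPM1 led, each overlapping the next, followed by MYL6, MYLK, MYL12A and TPM2, which overlapped in turn; MYL9 and CALD1 were last and overlapped. In post-hypoxic SCC154 MYLK, at 250.3 CPM, stood next after MYL12B at 278 CPM in the order of means. Its range overlapped those of MYL12B, TPM4, TPM3, TPM1 and MYL6. CALD1 was last without overlap. The SCC154 contrast picked MYLK and CALD1, so their places are a description.

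The genes around this group were taken from lists chosen for the pathway. In the SCC154 contrast, where 0.757% of all genes passed (0.423% lower), 1 of 27 tested actin and thin filament genes did, PALLD, the actin cross-linker palladin, which fell by 0.58 on the log2 scale in post-hypoxic cells (SE 0.13), from 84.5 ± 13.4 CPM (SD, n = 5) to 56.9 ± 10.2 CPM (n = 4). Its adjusted p was 0.0416 by edgeR's quasi-likelihood test, close to the threshold, and its call was not followed over the alternative settings. In FaDu, PALLD had 64.0 ± 3.22 and 74.4 ± 4.43 CPM and did not pass. None of the 5 tested myosin chains, 22 regulators of light chain phosphorylation or 14 MRTF and SRF pathway genes passed in either line. The median log2 fold changes in SCC154 were -0.08, 0.01, -0.09 and 0.01 for the myosin chains, the regulators, the thin filament genes and the MRTF and SRF genes, beside 0 over all genes.

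Between the lines, of the 5 tested myosin chains 2 were higher and 2 lower in non-hypoxic SCC154, and 0 and 2 in post-hypoxic SCC154. The share of all genes was 34.5% each way in non-hypoxic cells, and 34.8% higher and 34.9% lower in post-hypoxic cells. MYH9, the main non-muscle heavy chain, was 1.26-fold higher in non-hypoxic SCC154 (494 ± 20.3 CPM in FaDu, 623 ± 55.1 in SCC154) and did not pass in post-hypoxic cells (489 ± 24.7 and 559 ± 71.0 CPM). MYH10 was 1.45-fold lower in non-hypoxic SCC154 (112 ± 4.91 and 76.8 ± 3.70 CPM) and 1.53-fold lower in post-hypoxic SCC154. MYH14 had 19.8 ± 4.36 CPM in post-hypoxic FaDu and 1.78 ± 1.62 CPM in post-hypoxic SCC154. Of the 22 regulators 10 were higher and 5 lower in non-hypoxic SCC154, and 10 and 7 in post-hypoxic SCC154, beside the same shares of all genes. DAPK1, a death-associated kinase that also phosphorylates the regulatory light chain, had 36.3 ± 6.62 CPM in non-hypoxic and 41.8 ± 9.83 CPM in post-hypoxic SCC154, against 1 count in all over the 4 non-hypoxic and 2 counts over the 5 post-hypoxic FaDu libraries. RHOB, a GTPase upstream of ROCK, was 5.70-fold and 5.79-fold higher in SCC154. It had 6.35 ± 4.15 CPM in non-hypoxic and 6.87 ± 4.13 CPM in post-hypoxic FaDu, from 51 and 78 counts in all. Those levels lie near the filter on low counts, so the folds of RHOB are a description. PPP1CC, a catalytic subunit of protein phosphatase, was 2.65-fold lower in non-hypoxic and 1.94-fold lower in post-hypoxic SCC154. The folds given for MYH9, MYH10 and PPP1CC passed in edgeR's quasi-likelihood test, with adjusted p from 1.43e-06 for PPP1CC in non-hypoxic cells to 0.00229 for MYH9. DAPK1 and MYH14 were abundant enough to be tested only through the line where they are high, so their levels are a description.

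Of the 27 thin filament genes 11 were higher and 10 lower in non-hypoxic SCC154, and 8 and 13 in post-hypoxic SCC154, beside the same shares of all genes. SVIL (supervillin, which binds myosin II and actin) was 9.76-fold and 9.93-fold higher and the adaptor gene SORBS3 5.07-fold and 7.76-fold higher. SVIL was low in FaDu, at 8.59 ± 1.12 CPM in non-hypoxic and 6.75 ± 2.06 CPM in post-hypoxic cells, from 71 and 72 counts in all. SORBS3 had 4.96 ± 1.31 CPM in non-hypoxic and 4.03 ± 2.86 CPM in post-hypoxic FaDu, from 41 and 46 counts in all. These levels lie near the filter on low counts, so the folds of SORBS3 are a description. CTTN (cortactin, which stabilises branched actin) was 5.10-fold and 4.80-fold lower, from 2383 ± 266 to 467 ± 38.2 CPM in non-hypoxic cells, and CFL1 (cofilin, which severs actin) 2.38-fold and 2.45-fold lower. Of the 14 MRTF and SRF genes 6 were higher and 2 lower in non-hypoxic SCC154 and 6 and 1 in post-hypoxic SCC154, where the shares of all genes were again 34.5% each way, and 34.8% and 34.9%. CCN2, a matrix-cell signalling protein, had 90.6 ± 8.90 and 62.2 ± 11.7 CPM in SCC154 and 3.16 ± 0.612 and 2.98 ± 1.90 CPM in FaDu, where it was below the filter on low counts, so its levels too are a description. TUFT1 was 6.14-fold and 8.86-fold higher, and FOSL1, an AP-1 subunit, was 6.02-fold and 5.93-fold lower. SRF itself was 1.90-fold lower in non-hypoxic SCC154 (83.4 ± 20.2 and 43.8 ± 13 CPM, adjusted p = 0.00154, edgeR) and did not pass in post-hypoxic cells. Of the 9 squamous markers 2 were higher and 5 lower in SCC154 in each population. The higher ones were KRT6A (5.40-fold and 5.02-fold) and CDH1 (2.19-fold and 2.41-fold). The basal keratins KRT5 (8.32-fold and 8.44-fold) and KRT14 (7.12-fold and 6.60-fold) were among the lower. KRT14 had a mean of 12.3 CPM over the non-hypoxic libraries of both lines and 21.3 CPM over the post-hypoxic ones. With these folds it was scarce in SCC154, so its folds are a description.

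The 5 genes whose log2 CPM followed CALD1 most closely over the 18 libraries, among 9666 genes with a mean of at least 10 CPM, were CDC42SE2, ABCF1, FBXO27, SSX2IP and FGFR3, with Pearson r of 0.96 to 0.97. FGFR3, a growth factor receptor, had group means of 43.5, 47.0, 7.68 and 3.11 CPM from non-hypoxic FaDu to post-hypoxic SCC154. Those closest to MYLK were ACCS, SPAG16, SOCS3, ZBED5-AS1 and IGFBP6, each with r of 0.97. SOCS3, a feedback inhibitor of cytokine signalling, had means of 15.9, 16.5, 34.5 and 51.9 CPM, and IGFBP6, a binding protein of insulin-like growth factors, 143, 138, 294 and 424 CPM. The points share library, line and depth, and the group means of all 10 step between the lines.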

How the data were processed

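Polyadenylated RNA of 18 samples was read with a 3′ tag kit, per the labels' protocols, and the authors deposited the resulting integer counts by gene symbol. Tools listed in the submitters' processing notes are HISAT2 2.2.1, featureCounts 1.5.1, UMI-tools 1.1.5, Trimmomatic 0.39, FastQC 0.11.9 and DESeq2, on hg38. Their settings, strandedness and treatment of multiply mapped reads are not given in the sources. Library totals were 1654719 to 2503573 counts.

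The 10 genes and all gene lists were chosen with earlier results of these data known. Counts were tested with edgeR 4.0.16 (R 4.3.3): filterByExpr, TMM scaling, a single quasi-likelihood fit of all libraries with 4 group means (14 residual degrees of freedom), and Benjamini-Hochberg adjustment over 12291 genes. Alternatives were DESeq2 1.42.0, limma 3.58.1 (voom), other scaling, no filter, only the compared groups, replicate blocks and each library left out; the block shared across lines was added after seeing the data. Intervals are 95%. Named genes were the 10, in each list, comparison and direction up to 2 genes of largest change past the threshold whose mean reached 10 CPM, and 5 each by likeness to CALD1 and MYLK (log2 CPM, prior count 2). Of the genes overlapping a member, MYLK-AS1, SMARCC2 and MYL6B were also named. A gene that this rule names is not reported here. DAPK1 is given by counts because FaDu held 1 and 2 in all.

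A chi-square comparison of 32 replicate pairs gave 1.77 to 10.7 per degree of freedom, so each library was counted singly. Same-numbered FaDu libraries deviated together from their group means (r = 0.45, 0.18, 0.21 and 0.44 for replicates 1 to 4). The labels do not say what a number marks. The main fit did not pair them, and a block on replicate number was fitted as an alternative. The block changed no call of the 10 genes in FaDu but raised the genes called from 0 to 7. Promoters come from RefSeq (GRCh38.p14), and gene positions from GENCODE v29.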

Additional observations from a re-analysis of the deposited data

Results flagged for a closer look

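CALD1 in post-hypoxic FaDu replicate 1 had 185 CPM and stood below the other 4 libraries of its group, the nearest of which had 202 CPM; its gap was 0.711 of the range of the group, beside a limit of 0.71. TPM1 in non-hypoxic SCC154 replicate 1 had 284 CPM and stood above the other 4, the nearest of which had 231 CPM, a gap of 0.753 of the range. These are 2 of 40 gene-by-group sets examined, and chance marks about 1 in 20. The same SCC154 library was also the highest of its group for TPM2 (129 CPM), TPM3 (332 CPM), TPM4 (329 CPM), MYL9 (70.1 CPM) and CALD1 (58.2 CPM). Without it, the non-hypoxic line difference of TPM4 was 0.36 on the log2 scale (adjusted p = 0.0550, edgeR, in a range of 0.00482 to 0.123 over all alternatives).

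The change of CALD1 from non-hypoxic to post-hypoxic cells differed between the lines by -2.03 on the log2 scale (SE 0.18, SCC154 minus FaDu). It contains the contrast from which CALD1 was picked, so it describes the choice and adds no independent test.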

How the results depend on the processing

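Across 28 alternative settings (18 of which left out a library), 1290 values of the 10 genes were recomputed; 1273 kept their side of the threshold and 0 called values changed sign. In post-hypoxic against non-hypoxic SCC154 the genes called (93) became 291 without a filter on low counts, 207 with DESeq2, 22 with only the compared groups, and 20 to 190 with a library left out: 57, 20, 21, 51 and 24 without non-hypoxic replicates 1 to 5, 23, 163, 20 and 190 without post-hypoxic replicates 2 to 5, and 59 and 55 without replicate 3 of non-hypoxic and post-hypoxic FaDu. The calls among the 10 numbered 2 to 3 there, TPM3 being added without post-hypoxic replicate 5 and also with no filter. With the replicate block within each line, that contrast called 1052 genes and 4 of the 10 (TPM3 and TPM4 added), and with the block shared across lines 243 genes. Same-numbered SCC154 libraries (replicates 2 to 5) had correlations of 0.03, 0.29, 0.40 and 0.14. Replicates 3, 4 and 5 each correlated best with their own number and replicate 2 did not. In FaDu, replicates 1 and 4 correlated best with their own number, replicate 2 in 1 direction and replicate 3 in neither. The main fit paired the libraries of neither line. In FaDu the genes called (0) became 10 without a filter, 3 with DESeq2, 7 with the replicate block within each line, and 0 to 1 with a library left out; none of the 10 was called in any setting. For the difference between the lines, the 10 held 2 calls without a filter (51 genes), 2 with DESeq2 (21 genes) and 3 with the replicate block within each line (224 genes), MYLK being the addition in each and MYL12A in the last; the shared block called 5 genes. The cause of these shifts was not tested. In the line comparisons the counts of the 10 stayed between 6 and 9 in non-hypoxic and between 6 and 7 in post-hypoxic cells; MYL6 passed without a filter in the former (adjusted p = 0.0341, range 0.0341 to 0.869 over the settings) and MYL9 with the shared replicate block in the latter (0.00185). The difference between the lines uses all 4 groups and had no fit on compared groups alone, and the line comparisons had no block within a line. CALD1 in post-hypoxic SCC154 rests on 16 to 35 counts a library.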
